A study of Bos taurus with 30 samples.

Results

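Chromatin regions that opened in bovine embryos at the 8-cell stage, were still open in morula and were no longer found in the inner cell mass (ICM) are described here as window regions. A window region was an 8-cell region that shared no base with a region of germinal vesicle-stage (GV) oocytes, 2-cell embryos, 4-cell embryos or ICM, overlapped a morula region, and did not lie under peaks of all 3 libraries of 8-cell embryos cultured with α-amanitin. Regions of a stage were the peaks of its 3 control replicates, merged and retained where at least 2 replicates had a peak. By this rule 36402 of the 120364 8-cell regions (30.2%) were window regions, and together they covered 27.6 Mb. Because peaks of these libraries selected the regions, their presence at the 8-cell stage and in morula and their absence at the other stages are a description and carry no test.

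ATAC-seq marks accessible DNA by the insertions of a transposase, and the data were 30 peak lists, 1 for each of 3 libraries in 10 groups. GV oocytes were taken from separate collections before maturation, and embryos were produced in vitro from oocytes matured and fertilised with semen of a Holstein bull. Every library came from a pool of cells, so that differences between single embryos or blastomeres cannot be seen. Control groups were GV oocytes, 2-cell embryos at 30 to 32 h after insemination, 4-cell embryos at 2 days, 8-cell embryos at 3 days, morula at 5 days, ICM isolated from blastocysts by immunosurgery, and bovine embryonic stem cells (ESC), which had been grown on feeder cells and separated from them by plating. Transcription blocked embryos (TBE) were 2-, 4- and 8-cell embryos kept from day 1 in medium with 50 µg/ml α-amanitin, and they came from the same collections as the controls, split before culture. The trophectoderm, the outer cell layer of the blastocyst, was not among the groups, so regions absent from ICM may or may not be open there. The label of a stage could not be checked against marker genes, since peaks carry no expression values and an annotation on the genome build of the lists was not used here.

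In cattle, transcription from the embryonic genome starts on a large scale between the 4-cell and the 8-cell stage, when products stored in the oocyte are replaced. α-Amanitin blocks RNA polymerase II, and embryos treated with it lack the new messages. The morula then compacts and its cells separate into the trophectoderm, which forms the placenta, and the ICM, which forms the embryo proper and from which ESC are derived.

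The lists differed in length and depth. They held 125253 to 156569 peaks for 8-cell embryos, 142231 to 207459 for morula, 84773 to 116791 for ICM, 50090 to 247513 for 8-cell TBE, 39333 to 142643 for ESC, 40132 to 44678 for GV oocytes and 14355 to 42012 for 4-cell embryos. The 2-cell control lists held only 1002 to 6440 peaks, and those of 2-cell and 4-cell TBE 925 to 11083 and 3094 to 32260. The reads behind each list are not in the files. A background level, meaning the number of tags that chance would place over a base, is proportional to depth and was recovered for 21 lists. It was 0.806 to 1.315 for 8-cell libraries, 0.452 to 0.927 for morula and 0.438 to 1.058 for ICM. Among 8-cell TBE libraries replicate 2 stood apart with 3.823, against 1.244 for replicate 1 and 0.347 for replicate 3.

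Of the 120364 regions of 8-cell embryos, 97173 (80.7%) shared no base with a region of GV oocytes, 2-cell or 4-cell embryos. A total of 73697 of these had no ICM region, and 38160 of the latter overlapped a morula region. The clause on 8-cell TBE peaks then removed 1758 regions. Another 19108 regions met every clause except that they overlapped an ICM region, and are called kept to ICM below. A further 34618 were new at the 8-cell stage, overlapped no region of morula or ICM and did not lie under peaks of all 3 TBE libraries, and are called 8-cell-only regions. With all replicates, window regions were the largest of these 3 sets, but this order was not stable. Rebuilt without replicate 1, they numbered 29602 against 28603 8-cell-only regions. Without replicate 2 they were fewer, 27711 against 31329, and without replicate 3 also fewer, 23073 against 23694.

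Support for the window regions was uneven across libraries. In 8-cell embryos, 32168, 30807 and 35274 of the 36402 window regions had a peak in replicates 1, 2 and 3, and in morula 29840, 34004 and 33988. Peaks in all 6 libraries were found for 19032 window regions (52.3%). Exactly 2 of 3 8-cell libraries had a peak on 10957 of them (30.1%), and exactly 2 of 3 morula libraries on 10522 (28.9%). No peak of any GV oocyte, 2-cell, 4-cell or ICM library touched 26497 window regions (72.8%). Both conditions were met by 13536 (37.2%), and 10223 of those (28.1% of all) also lacked a peak in every 8-cell TBE library. Earlier stages had few single-library peaks on window regions: 1634 (4.49%) had a peak in at least 1 of the 4-cell libraries, 168 in 1 of the short 2-cell lists and 1834 in 1 of the GV oocyte libraries. By library, 4-cell replicates 1 to 3 had a peak on 2.68%, 1.19% and 0.651% of window regions, against 19.3%, 11.1% and 7.05% of all 8-cell regions. For GV oocytes the shares were 1.29%, 1.60% and 2.31%, against 18.3%, 17.7% and 18.4%. The rule removed regions of these stages, so lower shares follow in part from it.

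The ICM border of the rule was not sharp. A peak in at least 1 ICM library was present on 7791 window regions (21.4%), by library on 2280, 2252 and 3385 (6.26%, 6.19% and 9.30%). Over all 8-cell regions the same ICM libraries had a peak on 34.7%, 33.9% and 39.1%. The rule removed ICM regions, so lower shares on window regions follow in part from it. Median mean fold enrichment in morula, the tags in a peak relative to the background that MACS2 sets around it in that library, was 4.28 for window regions with no ICM peak and 4.68 for those with a peak in 1 ICM library. Just outside the rule, it was 4.96 for regions kept to ICM with peaks in exactly 2 ICM libraries and 5.63 for those with peaks in all 3. In 8-cell embryos the same 4 sets had medians of 4.26, 4.16, 4.22 and 4.37. Height in morula thus followed the number of ICM libraries with a peak, step by step, whereas height in 8-cell embryos did not. At the TBE border, window regions under peaks of 0, 1 or 2 TBE libraries had 8-cell medians of 4.32, 4.12 and 3.97, and the 1758 regions under peaks of all 3, outside the rule, had 4.06.

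To ask whether the pattern held in libraries that had not selected the regions, each replicate number was held out of every group in turn, the rule was applied to the other 2 replicates, and the held-out libraries were read. This gave 29602, 27711 and 23073 regions when replicates 1, 2 and 3 were held out. In held-out 8-cell libraries, 86.4%, 84.7% and 96.6% of these regions had a peak, and in held-out morula libraries 83.1%, 92.9% and 93.4%. In held-out ICM libraries 16.2%, 16.5% and 20.2% had one. Held-out 4-cell libraries had a peak on 3.51%, 1.69% and 0.611%, GV oocyte libraries on 2.78%, 2.98% and 3.08%, and 2-cell libraries on 0.0203%, 0.0397% and 0.347%. No 8-cell or morula library came near any library of the other stages.

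**Figure D1:**
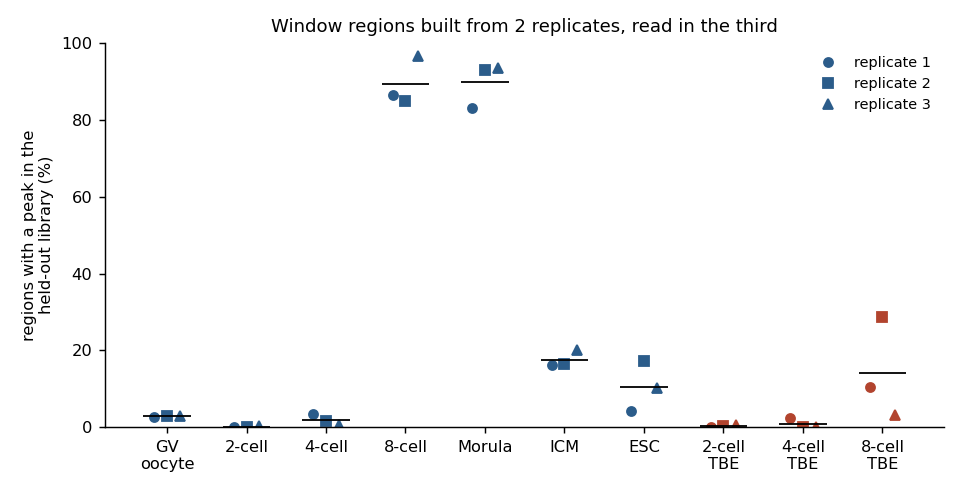
Percentage (y axis) of window regions, rebuilt from 2 replicates, that had a peak in the held-out library of each group (x axis). Points are libraries, shaped by replicate number, lines are group means, blue marks control and red marks TBE groups. The 8-cell and morula libraries sit between 83.1% and 96.6%, and no other library exceeds 28.8%.

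Held-out 4-cell libraries had a peak on 1.94% ± 1.47 (SD, n = 3) of the window regions, against 89.3% ± 6.46 (SD, n = 3) in held-out 8-cell libraries. The difference of -87.3 percentage points had the smallest value that an exact two-sided permutation test allows with 3 libraries against 3 (p = 0.1, adjusted p = 0.1 over 4 tests). In ICM the mean was 17.6% ± 2.22 (SD, n = 3) and in morula 89.8% ± 5.83 (SD, n = 3), a difference of -72.2 points at the same smallest value of the exact test (p = 0.1, adjusted p = 0.1). Both differences were larger than the spread between libraries, and in neither comparison did the groups overlap. The regions were selected by other replicates of the same groups, so the rule favoured differences in these directions. Each library also helped to select the regions in the turns in which it was not held out. The 3 values of a group were thus not independent, and the permutation p-values are descriptive. Replicates come from separate collections as far as the descriptions say, and lists of different depth were compared.

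Embryos cultured without new transcription lacked peaks on most window regions. Held-out 8-cell TBE libraries had a peak on 10.4%, 28.8% and 3.11% of the regions rebuilt without them, a mean of 14.1% ± 13.2 (SD, n = 3). Over all 8-cell regions the same libraries had a peak on 29.7%, 44.7% and 21.5%, so most 8-cell regions in general lacked one as well. On window regions every TBE library lay below every control library, and the difference of -75.15 percentage points from held-out 8-cell controls had the smallest value of the exact two-sided permutation test (p = 0.1, adjusted p = 0.1). The order of the TBE libraries was that of their background levels, 1.244, 3.823 and 0.347 for replicates 1, 2 and 3, and the part of depth in these shares was not tested. Without the clause on TBE peaks in the rule the difference was -69.2 points. Here too each library helped to select regions in the turns in which it was not held out, so the permutation p-value is descriptive.

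The window regions were not uniform in this respect. A total of 25066 (68.9%) had no peak in any 8-cell TBE library, 8141 (22.4%) had a peak in 1 and 3195 (8.78%) in 2. Of the 8141, replicate 2 supplied 7167, replicate 1 supplied 682 and replicate 3 supplied 292. None could have a peak in all 3 by the rule, whereas 19.0% of all 8-cell regions did. By library, TBE replicates 1 to 3 had a peak on 9.16%, 28.2% and 2.54% of window regions. Over all 8-cell regions these shares were 29.7%, 44.7% and 21.5%. The rule used the same libraries, so lower shares on window regions follow in part from it. Shares with a peak in 0, 1 or 2 libraries were not computed over all 8-cell regions. Where window regions carried a TBE peak, its median fold enrichment was 3.32, 2.53 and 3.46 in TBE replicates 1 to 3. Fold enrichment is relative to each library's own background, so that of the deep replicate 2 is not on the scale of the others. In TBE replicates 1 and 2, though hardly in replicate 3, peaks fell more often on long window regions. In TBE replicate 2 a peak was present on 21.5% of window regions under 400 bases, 27.8% of those of 400 to under 1000 bases and 37.0% of those of 1000 bases or more. The shares over the same lengths were 6.96%, 8.84% and 12.3% in replicate 1, and 2.51%, 2.29% and 2.95% in replicate 3. The part of length in these shares was not tested.

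Regions kept to ICM more often had TBE peaks than window regions did, and 8-cell-only regions less often. With each replicate held out, TBE replicate 1 had a peak on 10.4% of window regions, 20.4% of regions kept to ICM and 5.24% of 8-cell-only regions. In replicate 2 the shares were 28.8%, 45.7% and 23.7%, and in replicate 3 they were 3.11%, 5.74% and 2.35%. The order was the same in 3 of 3 libraries, and it was given without a test. 8-cell-only regions were also found less often in held-out 8-cell controls, in 67.6%, 69.5% and 88.6%.

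At the earlier stages α-amanitin libraries had almost no peaks on window regions. In 4-cell TBE libraries 904, 34 and 35 window regions had a peak (2.48%, 0.0934% and 0.0961%), and in 2-cell TBE libraries 7, 137 and 216. Only replicate 1 of 4-cell TBE, the longest of these lists with 32260 peaks, had a peak on more than 216 of them. Over all 8-cell regions, 4-cell TBE replicates 1 to 3 had a peak on 14.0%, 2.72% and 1.76%. For 2-cell TBE replicates 1 to 3 these shares were 0.614%, 4.27% and 6.79%. A 4-cell TBE region, shared by at least 2 replicates, overlapped 6 window regions (0.0165%), against 3.05% of all 8-cell regions. The matching control stages were used to select the regions, so low shares at these stages follow in part from the rule.

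The window regions were nearly as enriched as regions kept to ICM in 8-cell embryos, and lower than these in morula. Median fold enrichment of window regions in 8-cell replicates 1, 2 and 3 was 4.13, 4.14 and 4.56, against 4.17, 4.21 and 4.67 for regions kept to ICM. In morula it was 4.34, 4.38 and 4.47 for window regions, against 5.29, 5.51 and 5.31 for regions kept to ICM. Window regions themselves thus had overlapping values at both stages, and the gap to regions kept to ICM opened in morula. On the log2 scale, the median of window regions over that of regions kept to ICM was -0.03 ± 0.01 (SD, n = 3) in 8-cell libraries and -0.29 ± 0.04 (SD, n = 3) in morula libraries. The difference of -0.26 had the smallest value that the exact two-sided permutation test allows (p = 0.1, adjusted p = 0.1), and every morula library lay below every 8-cell library. The rule asked for a peak at both stages and did not compare heights, but regions kept to ICM were selected by peaks of the stage that follows morula. Height in morula went up with the number of ICM libraries with a peak, so the split by ICM peaks favoured a gap in morula. The same 8-cell and morula libraries also selected the regions, so the permutation p-value is descriptive. With only the top 50000 peaks of each list the difference was -0.05, in the same direction and at the same smallest exact permutation p of 0.1.

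**Figure D2:**
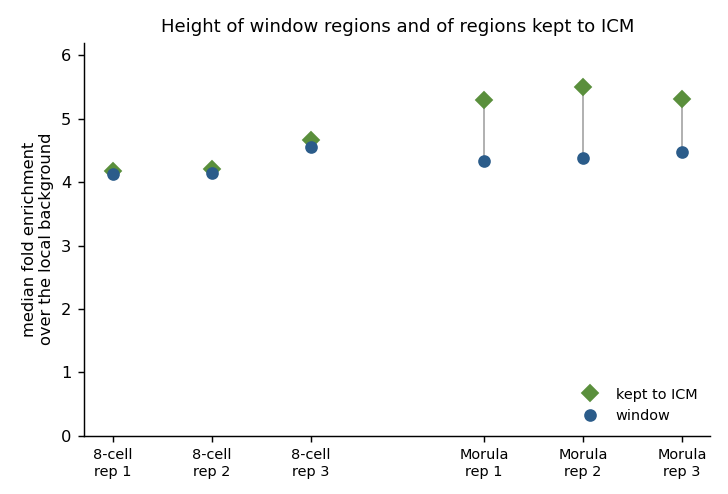
Median fold enrichment over the local background (y axis) of window regions (blue circles) and of regions kept to ICM (green diamonds) in each 8-cell and morula library (x axis). Grey lines join both sets of a library. The sets lie close together in 8-cell embryos, at 4.13 against 4.17 in replicate 1, and apart in morula, at 4.34 against 5.29.

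The same values can be shown by dividing window regions and regions kept to ICM into deciles by height. This restates the comparison of medians for sets that were split by ICM peaks, and it is no separate observation. Over deciles of the mean 8-cell fold enrichment, from 2.05 to 11.9, window regions made up 65.6% of the lowest and 59.2% of the highest decile, and between 64.5% and 67.6% of those between. Over deciles of the mean morula fold enrichment the share went down at each step, from 87.0% in the lowest to 36.0% in the highest. Even in the highest morula decile, with values of 7.05 and above, 2000 of 5551 regions were window regions. These shares describe regions of 1 genome and have no test.

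**Figure D3:**
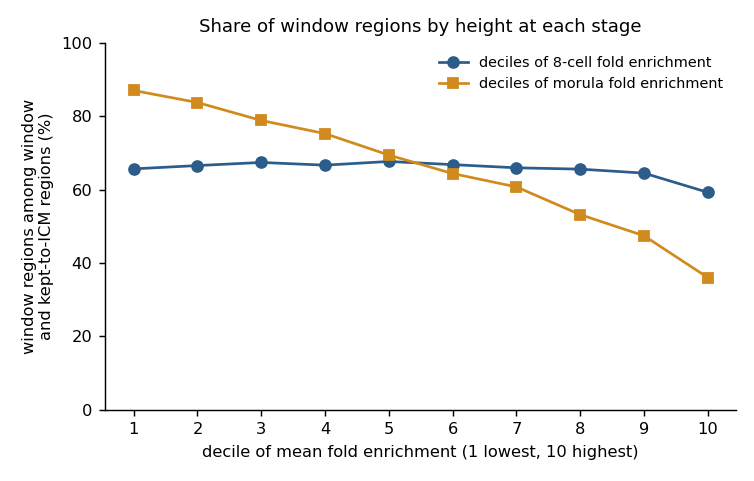
Percentage of window regions among window regions and regions kept to ICM (y axis), in deciles of mean fold enrichment (x axis, 1 lowest, 10 highest) in 8-cell embryos (blue circles) and in morula (orange squares). The share stays between 59.2% and 67.6% over 8-cell deciles and goes from 87.0% to 36.0% over morula deciles.

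For regions with a peak in all 6 libraries, each value was divided by the median of regions kept to ICM in the same library, and the log2 ratio of morula to 8-cell means was taken. The median ratio was -0.26 for the 19032 window regions and -0.07 for 13248 regions kept to ICM, and it was below 0 for 77.9% and 57.6%. The 5th and 95th percentiles of window regions were -0.83 and 0.33, and 1.82% were below -1. For 7281 window regions (38.3%) every scaled morula value was below every scaled 8-cell value, against 26.1% of all 8-cell regions with 6 peaks and 22.4% of regions kept to ICM. The reverse held for 914 window regions (4.80%), against 10.3% of all such 8-cell regions and 14.4% of regions kept to ICM. The scale is that of regions kept to ICM, which were higher in morula, so a ratio below 0 places a window region lower against those in morula than in 8-cell embryos and does not say that its own enrichment was lower.

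ESC libraries were in no clause of the rule, and they had peaks on few window regions. ESC replicates 1, 2 and 3 had a peak on 1298, 5921 and 3807 window regions, or 3.57%, 16.3% and 10.5%. On regions kept to ICM the shares were 14.6%, 38.9% and 29.6%, and on 8-cell-only regions 1.40%, 7.99% and 4.86%. In each library window regions lay between the 2 other sets, and below the 15.7%, 32.5% and 26.8% of all 8-cell regions. With the replicate number held out of the rule the shares of window regions were 4.29%, 17.3% and 10.3%. An ESC region, with peaks of at least 2 ESC replicates, overlapped 3296 window regions (9.05%), against 25.5% of all 8-cell regions, 28.0% of regions kept to ICM and 3.90% of 8-cell-only regions. The shares followed the length of the ESC lists, from 39333 peaks in replicate 1 to 142643 in replicate 2.

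**Figure D4:**
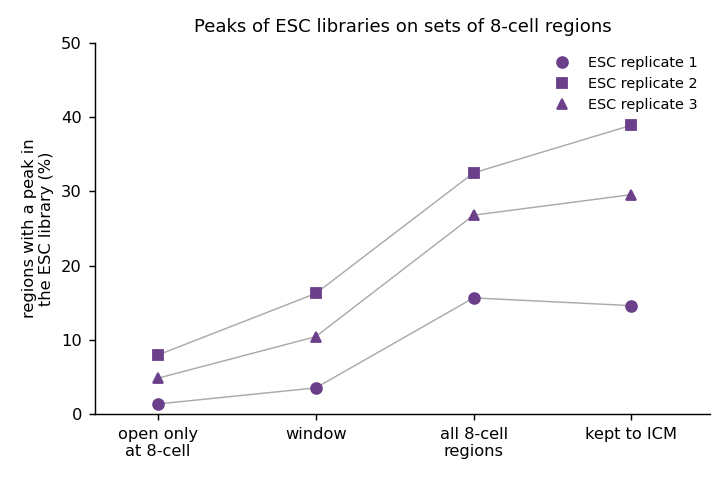
Percentage of regions with a peak in each of 3 ESC libraries (y axis), for 8-cell-only regions, window regions, all 8-cell regions and regions kept to ICM (x axis). Each line joins the values of 1 library. Window regions lie below regions kept to ICM in 3 of 3 libraries, at 16.3% against 38.9% in replicate 2.

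The shares were also compared between regions of like height. Within each decile of 8-cell fold enrichment and each decile of morula fold enrichment, window regions had ESC peaks less often than regions kept to ICM, in 30 of 30 pairs of decile and library for each height. The deciles share the same 3 libraries and are not replicates. The sets differ by the ICM clause and ESC are derived from ICM, so ESC shares are not independent of the rule. The part of height in the gap was not tested. Averaged over the 3 libraries, the difference of window regions from regions kept to ICM was -17.6 percentage points, and -17.9 and -16.3 points within deciles of 8-cell and of morula height. In the highest 8-cell decile ESC replicate 2 had peaks on 10.3% of window regions and 26.7% of regions kept to ICM, and in the lowest on 19.8% and 37.9%. In each ESC library the highest 8-cell decile had the lowest share, among window regions and among regions kept to ICM alike. By morula height the share of window regions was instead higher in the highest than in the lowest decile. It went from 2.42%, 14.0% and 8.97% to 4.9%, 17.45% and 11.65% in ESC replicates 1 to 3.

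Window regions with an ESC region differed little in height from the others. Median fold enrichment in 8-cell libraries was 3.97, 3.89 and 4.34 with an ESC region and 4.15, 4.17 and 4.58 without one, lower in 3 of 3 libraries. In morula it was 4.29, 4.63 and 4.58 with an ESC region and 4.34, 4.35 and 4.46 without one, lower in 1 library and higher in the other two. ESC regions were more frequent among window regions that also had peaks elsewhere. They overlapped 6.28% of window regions without a TBE peak, 13.5% of those with a peak in 1 TBE library and 19.5% of those with peaks in 2. Likewise 7.06% of window regions with no ICM peak overlapped an ESC region, and 16.3% of those with a peak in 1 ICM library. The same steps were not computed over all 8-cell regions, so these shares cannot be read as a trait of window regions. Of the 8141 window regions with a peak in 1 TBE library, 7167 had it in the deep replicate 2. By length the share was nearly flat, at 9.06% under 400 bases, 8.46% from 400 to under 1000 bases and 9.93% at 1000 bases or more.

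Window regions were of usual size for this genome-wide set. Their median length was 593 bp (quartiles 350 and 1036 bp), against 657 bp for all 8-cell regions, 667 bp for regions kept to ICM and 470 bp for 8-cell-only regions. A length of 1000 bp or more was reached by 26.9% of window regions and by 30.5%, 30.4% and 19.5% of the other sets. Short regions had slightly higher enrichment. Median fold enrichment in 8-cell replicates 1, 2 and 3 was 4.28, 4.20 and 4.72 under 400 bases and 3.91, 4.03 and 4.32 at 1000 bases or more, and in morula 4.42, 4.54 and 4.65 against 4.22, 4.20 and 4.26. Fold enrichment in the lists is a mean over the whole peak.

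The 8-cell and morula regions at a window site were mostly the same stretch of DNA. A single morula region lay on 36120 window regions (99.2%), it covered a median of 90.1% of the bases, and the centres were a median of 90 bp apart. At least 50% of the region was covered in 81.3%. The morula region was the wider of the pair in 50.2% of window regions and in 65.8% of regions kept to ICM. Among these pairs, the median morula length was 584 bp for window regions and 804 bp for regions kept to ICM, from 8-cell lengths of 587 and 658 bp. Window regions therefore had the same median width at both stages to within a few bases, while regions kept to ICM were wider in morula.

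Window regions were spread over the genome. On build ARS-UCD1.2, 36303 lay on the 29 autosomes and X. The share of 8-cell regions that were window regions had a median of 30.7% over autosomes, with the highest value on chromosome 8 (33.1%). Chromosomes 19 and 18 had the lowest shares, 24.0% each, followed by chromosomes 25 (26.5%) and 23 (27.3%). Chromosome X had 1196 window regions of 3566 8-cell regions (33.5%), above every autosome. Unplaced scaffolds had 99 of 845 (11.7%). Among window regions and regions kept to ICM together, the share of window regions was 62.0% and 62.2% on chromosomes 19 and 18, 59.5% on chromosome 22 and 70.3% on X. No spread between libraries can be given for these shares, as the regions were built from all libraries.

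**Figure D5:**
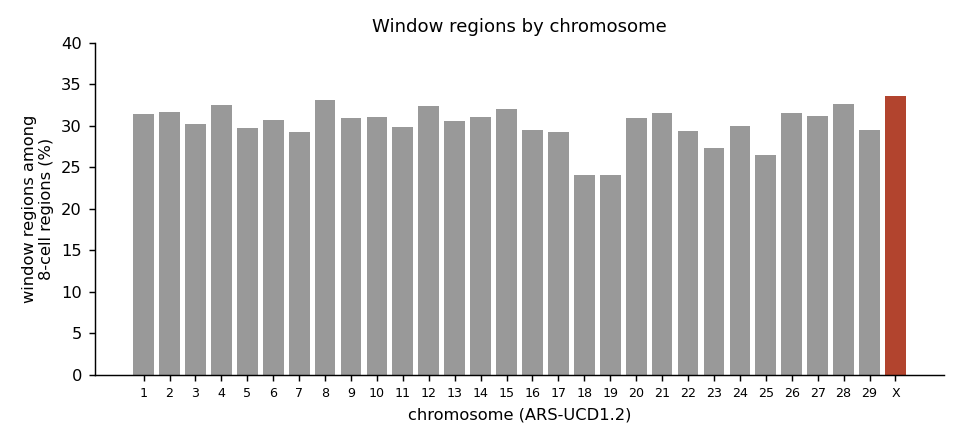
Percentage of 8-cell regions that were window regions (y axis, from 0) on each autosome (grey) and X (red) of ARS-UCD1.2 (x axis). Bars lie between 24.0% on chromosome 19 and 33.5% on X.

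Neighbouring window regions were a median of 19.4 kb apart, and 30.1% had another window region within 10 kb. Within the other sets these values were 17.6 kb and 34.2% for 8-cell-only regions, and 35.0 kb and 18.8% for regions kept to ICM. Such spacing depends on the number of regions in a set, and the part of number was not tested. Distance was also taken to the nearest 8-cell region that overlapped a region of GV oocytes, 2-cell or 4-cell embryos. Regions of those stages that were not open at the 8-cell stage were left out. This nearest region was a median of 46.1 kb away, against 35.8 kb for regions kept to ICM and 47.9 kb for 8-cell-only regions. It was over 100 kb away for 30.1% of window regions and for 23.9% of regions kept to ICM. Of 2639 bins of 1 Mb with an 8-cell region, 2632 held a window region, with a median of 13 (quartiles 10 and 18). The most were 37 of 91 8-cell regions in chr3:42000001-43000000, 35 of 80 in chr13:24000001-25000000, and 34 each in chr11:43000001-44000000 (of 65) and chr6:45000001-46000000 (of 74). In chr11:43000001-44000000, 52.3% of the 8-cell regions were window regions and 7 were kept to ICM.

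The 8 highest window regions were taken by mean fold enrichment among 10196 on a numbered chromosome or X, out of the 10223 with a peak in all 6 8-cell and morula libraries and in no GV oocyte, 2-cell, 4-cell, ICM or 8-cell TBE library. Over these 10196 the median mean fold enrichment was 4.79, with a 10th percentile of 3.76 and a 90th of 6.51. The 8 regions show what the most accessible window sites look like, and their positions are on ARS-UCD1.2. Which genes lie at or near them was not analysed here. The highest was chr1:64559134-64559616 (483 bp), with fold enrichment of 11.8, 9.82 and 12.8 in 8-cell and 12.0, 13.7 and 12.8 in morula replicates 1 to 3. The next, chr2:107303781-107304156, had 9.52, 9.67 and 10.8 in 8-cell and 10.8, 14.6 and 12.0 in morula libraries. It was the only one of the 8 with peaks in 2 ESC libraries, at 5.21 and 4.18 in ESC replicates 2 and 3.

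On chromosome 5 were chr5:3675345-3675759, with 8.73, 11.0 and 12.5 in 8-cell and 10.1, 12.4 and 9.43 in morula libraries, and chr5:52818103-52818532, with 10.5, 8.73 and 11.1 in 8-cell and 10.6, 13.2 and 9.61 in morula libraries. Both had values that overlapped between the stages. The region chr7:85035457-85036137 had 10.3, 9.30 and 10.4 in 8-cell libraries and 11.2, 12.0 and 10.4 in morula. The longest of the 8, chr20:16870166-16871318 with 1153 bp, had 8.49, 10.8 and 11.1 in 8-cell and 8.36, 13.3 and 11.5 in morula libraries. In chr6:95402720-95403108 the values were 8.89, 12.4 and 11.8 in 8-cell and 9.63, 11.3 and 9.50 in morula, and ESC replicate 2 had a peak of 3.73. The last, chr13:26049924-26050527, had 8.54, 11.9 and 11.5 in 8-cell and 8.16, 12.4 and 9.19 in morula libraries. The ranges of 8-cell and morula libraries overlapped in 8 of the 8 regions. No peak in any ESC library was found for 6 of the 8, against 80.9% of all window regions, so this is no trait of the highest sites.

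The extremes of the ratio between both stages were different in kind. The largest morula to 8-cell ratio was at chr11:70747635-70748637 (log2 1.2 after scaling), with 3.26, 2.77 and 3.07 in 8-cell and 7.41, 9.34 and 9.17 in morula libraries. This region was open elsewhere too, with peaks in TBE replicates 1 and 2 (3.46 and 2.80), in 4-cell replicate 1 (3.93) and in ESC replicates 1, 2 and 3 (3.74, 8.24 and 6.47). The next, chr13:51584067-51584908 (log2 1.14), had 3.33, 3.17 and 4.14 in 8-cell and 11.1, 9.92 and 7.81 in morula libraries, with a peak of 5.59 in ICM replicate 1 and of 4.99 in TBE replicate 1. At the other end, chr12:64443373-64444632 (log2 -1.74) had 8.50, 7.72 and 9.47 in 8-cell and 3.23, 3.03 and 3.18 in morula libraries, with peaks of 3.55 and 2.51 in TBE replicates 1 and 2. The region chr12:61451225-61451810 (log2 -1.58) had 7.28, 7.80 and 7.83 in 8-cell and 3.63, 2.89 and 2.91 in morula libraries, and no peak in ICM, 4-cell, ESC or TBE libraries. In these 4 regions the stages did not overlap, as the choice of extremes makes likely.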

How the data were processed

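ATAC-seq peak lists of 30 libraries were used, 3 replicates in each of 10 groups taken from the submitters' labels. The authors trimmed reads with Trim Galore and cutadapt 0.4.0, used BWA 0.7.17 to map them on ARS-UCD1.2, filtered out mitochondrial, poorly mapped and duplicate reads (SAMtools 1.7 among the tools) and called broad peaks with MACS2 2.1.1 at a q value of 0.05. Versions are those of the submitters' processing notes. The deposited fold enrichment is a ratio, the tag pileup divided by the background around it and averaged along the peak, as computed by the authors. It was read here as having a constant added to both terms, so libraries of different background are not on 1 scale. Without the constant, median enrichment of window regions was 6.51, 8.04 and 8.96 in 8-cell replicates 1 to 3 (4.13, 4.14 and 4.56 with it). In morula replicates 1 to 3 it was 11.7, 8.02 and 9.32 (4.34, 4.38 and 4.47 with it). The values of both stages overlapped. The deposited −log10 p and −log10 q were computed by the authors with MACS2 and averaged likewise, and the deposited score, derived from −log10 q, was not used. Each list belongs to 1 replicate, whereas the study also called peaks from pooled and subsampled reads. A peak call depends on depth, so absence of a peak is not absence of accessibility.

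The tools were matplotlib 3.10.9, scipy 1.17.1, pandas 2.3.3 and numpy 2.4.6 under Python 3.11.15. Regions were merged peaks of a group with peaks of at least 2 of 3 replicates, and 1 shared base counted as overlap. The fold enrichment of a region in a library was that of its highest peak, and regions without a peak there were left out of medians. Background levels were solved from fold enrichment and −log10 p with a tolerance of 0.0001, and 9 lists gave none. In the held-out comparison, regions needed peaks of both other replicates, and those under peaks of both other 8-cell TBE replicates were removed. Exact two-sided permutation tests of 3 libraries against 3 cannot go below p = 0.1, and p-values were adjusted over 4 tests (Benjamini-Hochberg). Over 200 trials of simulated intervals, merging and overlap gave 0 mismatches.

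Named regions were the 8 with the largest mean fold enrichment among window regions with a peak in all 6 8-cell and morula libraries and in no GV oocyte, 2-cell, 4-cell, ICM or 8-cell TBE library, on a numbered chromosome or X, the 2 with the largest and the 2 with the smallest scaled morula to 8-cell ratio, and the bins of 1 Mb with the most window regions. The window regions, comparison sets and rules were chosen with earlier results of these data known. Alternatives were peaks with −log10 q of at least 3 or fold enrichment of at least 3, autosomes only, the top 50000 peaks of each list, overlaps covering 50% or more of a region, regions made from any replicate or from all 3, no clause on TBE peaks, leaving out replicates and a replicate block. Leaving out 1 replicate of 1 group, the pileup over the background level and the comparison within deciles of height were chosen after seeing the data. Genes, sequences and motifs at the regions were not analysed here.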

Additional observations from a re-analysis of the deposited data

Results flagged for a closer look

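The mean difference between TBE and control libraries over window regions was negative at 2 stages and slightly positive in 2-cell embryos. With each replicate held out of the rule, TBE minus control in the percentage of window regions with a peak averaged -75.15 points in 8-cell embryos (-76.0, -55.9 and -93.5 for replicates 1, 2 and 3), against 0.212 points in 2-cell embryos (0.00338, 0.390 and 0.243). In 4-cell embryos it averaged -1.03 points (-0.997, -1.57 and -0.520). The difference between stages was not tested. In 2-cell replicate 1 the sign rested on 7 TBE against 6 control regions of 29602, a difference of 1 region from which no direction can be read. Control and TBE libraries of the 2-cell stage each had a peak on less than 1% of the window regions, and the rule had removed regions of 2-cell and 4-cell controls.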

How the results depend on the processing

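The number of window regions depended on how peaks were chosen. It was 36402 as reported, 23530 with peaks of −log10 q of at least 3, 7347 with the top 50000 peaks of each list and 23957 with regions from all 3 replicates, and from any replicate it was 53548. Leaving out replicates gave 23073 (without replicate 3 of every group) to 41807 (without ICM replicate 3). Of the 8 highest window regions, 8 remained under each of these and 7 with an overlap of at least 50%. They were chosen for a peak in every 8-cell and morula library and in no GV oocyte, 2-cell, 4-cell, ICM or 8-cell TBE library. Leaving out replicates or asking for all 3 could therefore hardly remove them, and that they remained is no test of stability. Over the settings that kept all replicates, the 8-cell TBE difference ranged from -86.0 to -66.9 points, the ICM difference from -72.2 to -65.3 and the 4-cell difference from -88.2 to -75.8. Leaving out 1 replicate number gave -84.8 to -66.0, -74.8 to -70.0 and -89.5 to -83.0, where 2 libraries against 2 can reach no exact permutation p below 0.333. The log2 height difference ranged from -0.30 to -0.05, and from -0.28 to -0.22 with 1 replicate number left out. The gap in ESC peaks ranged from -21.8 to -13.1 points, and from -21.0 to -14.0 with 1 left out. The mean share with a 4-cell TBE peak, 0.891% as reported, was 0.144% to 1.16%, and 0.110% without replicate 1, which held most of these peaks, to 1.43% without replicate 2.

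With the replicate number as a replicate block the 4 differences were the same (-75.15, -72.2 and -87.3 points and -0.26), and the exact sign-flip permutation test of 3 pairs had its smallest possible value, p = 0.25, in each. Control and TBE embryos shared collections, but whether equal numbers mark the same collection is not stated in the sources used here. Deviations of same-numbered 8-cell control and TBE libraries from their group means correlated at 0.02, -0.03 and 0.02 over 120364 regions. Depth is known only as a background level, and a missing peak in a shallow list, as in the 2-cell libraries, may be a limit of depth.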
